A study of Mus musculus with 8 samples.

Results

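The small structural noncoding RNAs described here are the RNAs that work as folded parts of RNA-protein particles and not as messengers: small nucleolar RNAs (snoRNAs, named Snord or Snora), small Cajal body RNAs (scaRNAs, named Scarna), entries of the small nuclear RNA family (named Rnu), the RNA of RNase P (Rpph1), the RNA of RNase MRP (Rmrp), the 45S ribosomal RNA precursor (Rn45s) and the telomerase RNA (Terc). They were chosen by name, and by a TPM above 0 in at least 2 of the 4 RNA libraries. TPM, the unit of the RNA tables, is a gene's share of all transcripts in a library after division by length, so that every library sums to 1000000. Of 24538 gene IDs in the RNA tables, 128 carried such a name and 120 met the rule. Of the 8 left out, 7 were listed at 0 in every library. The 120 members comprised 69 box C/D snoRNAs, 35 box H/ACA snoRNAs, 9 scaRNAs, 2 RNAs of the minor spliceosome (Rnu11 and Rnu12), the RNAs of RNase P and RNase MRP, the 45S entry, Terc and a 27-base entry named Rnu6. The 7SK RNA (Rn7sk) was not among the listed IDs.

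The cells were bone marrow LSK cells, which are lineage-negative, Sca-1-positive and c-Kit-positive stem and progenitor cells, from mice with a tamoxifen-inducible Cre (CreER+). Control mice were CreER+ WT, and knockout mice were CreER+ with floxed Tcf7 and floxed Lef1, the genes of the transcription factors TCF1 and LEF1. Cells of both groups grew on OP9-DL1 stroma, which presents a Notch ligand, and both received 4-OH tamoxifen on days 3 to 5. On day 7 the c-Kit-positive DN1 fraction (lineage-negative, CD4-negative, CD8-negative, CD44-high and CD25-negative) was sorted for 2 control and 2 knockout RNA libraries, and for as many ATAC-seq libraries, an assay that marks open chromatin. The sources used here give neither the promoter that drives CreER nor the age of the mice. Nothing in the labels says that the replicates came from separate mice or cultures, so the p-values below measure the spread between these libraries, which may be technical.

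RNase P trims the leader from transfer RNA precursors, and its relative RNase MRP cuts the ribosomal RNA precursor. Box C/D snoRNAs guide methylation of the ribose in ribosomal RNA, and box H/ACA snoRNAs guide the change of uridine to pseudouridine. ScaRNAs guide the same reactions on spliceosomal RNAs in Cajal bodies. Most mammalian snoRNAs are cut out of introns of host genes, many of which encode ribosomal proteins, whereas Rpph1 and Rmrp are transcribed by RNA polymerase III from their own promoters. Such promoters hold an octamer that binds POU factors, within a distal element, and a TATA box close to the start.

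The stretches upstream of Rpph1 and Rmrp are shown because these RNAs were the largest and the third largest member by TPM, have promoters of their own, and had an accessible region at the start in every ATAC-seq library. They were cut from RefSeq's promoter windows of the neighbouring genes Parp2 and Ccdc107 (GRCm38.p6, the build mm10), on the minus strand, which is the strand of both RNAs, and are written 5′ to 3′. Capitals mark the octamer (ATTTGCAT on either strand) and the letters TATAA on either strand.
Rpph1, chr14:50807772-50807915: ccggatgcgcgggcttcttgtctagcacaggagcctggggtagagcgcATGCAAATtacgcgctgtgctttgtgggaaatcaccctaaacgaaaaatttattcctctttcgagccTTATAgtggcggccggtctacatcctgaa
Rmrp, chr4:43493115-43493309: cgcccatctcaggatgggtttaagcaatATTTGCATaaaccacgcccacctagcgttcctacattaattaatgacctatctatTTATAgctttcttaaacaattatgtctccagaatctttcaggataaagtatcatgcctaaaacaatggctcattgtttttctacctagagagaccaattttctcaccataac
The Rpph1 stretch ends at the base before the RNA's start. Its octamer lay 96 to 89 bases upstream of the start, and its TATAA match, on the opposite strand, lay 29 to 25 bases upstream. The Rmrp stretch ends 56 bases upstream of the start, so the bases nearest to Rmrp are not in it. Its octamer lay 222 to 215 bases upstream and its TATAA match 167 to 163 bases upstream. Windows of the same length were cut from 32851 RefSeq promoter entries. The octamer was found in 0.898% of those of the Rpph1 length and 1.28% of those of the Rmrp length, and TATAA in 14.4% and 17.5%. A match of letters is a description, not a binding site.

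The labels were checked on the targeted genes and on cell markers. Tcf7 stood at 518 and 510 TPM in the controls against 13.2 and 12.4 TPM in the knockouts, while Lef1 lay between 1.10 and 1.66 TPM in all 4 libraries and so checks nothing. Of 6 markers of the sorted cells, 3 were lower and 2 higher in both knockouts. Kit, on which the sort rests, was at 251 and 238 against 157 and 157 TPM, and Flt3 at 20.5 and 18.6 against 25.8 and 30.4 TPM. Summed TPM of 10 T lineage markers was 448 and 450 in the controls and 44.0 and 41.7 in the knockouts. The sum of 14 stroma markers was 967 and 998 TPM in the controls and 2060 and 1698 TPM in the knockouts, with 11 of 14 higher in both knockouts, Dcn at 0 in every library and Dll1, which OP9-DL1 cells carry, the most abundant. The sum of 8 myeloid markers was 1623 and 1599 against 3302 and 3235 TPM, most of it Mpo (980 and 979 against 2256 and 2196 TPM), with 5 of 8 higher and 2 lower. That of 8 mast cell markers was 216 and 213 against 378 and 391 TPM, with 7 higher and 1 lower. Of all 13228 genes with a mean of at least 1 TPM, 44.4% were higher and 29% lower in both knockouts than in either control. The part of these cell types in the results below was not tested, and in such bulk libraries fewer cells of a type and less RNA per cell cannot be told apart. Relative depth, taken as coverage per unit of FPKM, was 2.41 and 2.12 in the controls and 2.64 and 2.63 in the knockouts.

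The members held 23.0% and 22.9% of all TPM in the controls against 18.6% and 19.2% in the knockouts. The mean fell from 22.9% ± 0.115 (SD, n = 2) to 18.9% ± 0.419 (SD, n = 2), a difference of -4.03 percentage points, with no overlap between the groups. This share was almost wholly Rpph1, which made up 84.0% and 83.9% of the members' TPM in the controls and 81.8% and 82.1% in the knockouts. With Rpph1 taken out of both the members and the total, the share was 4.557% in both controls and 3.998% and 4.083% in the knockouts, a difference of -0.517 points and a ratio of knockout to control of 0.887. With Rn45s taken out as well, the share was 1.41% and 1.45% in the controls and 1.07% and 1.11% in the knockouts, a difference of -0.334 points and a ratio of 0.766. The groups did not overlap on any of the 3 scales. The ratio for all members was 0.824, so the relative drop was smaller once Rpph1 was taken out and larger once Rn45s was taken out too. The share is a score over members, so no test was run on it.

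**Figure D1:**
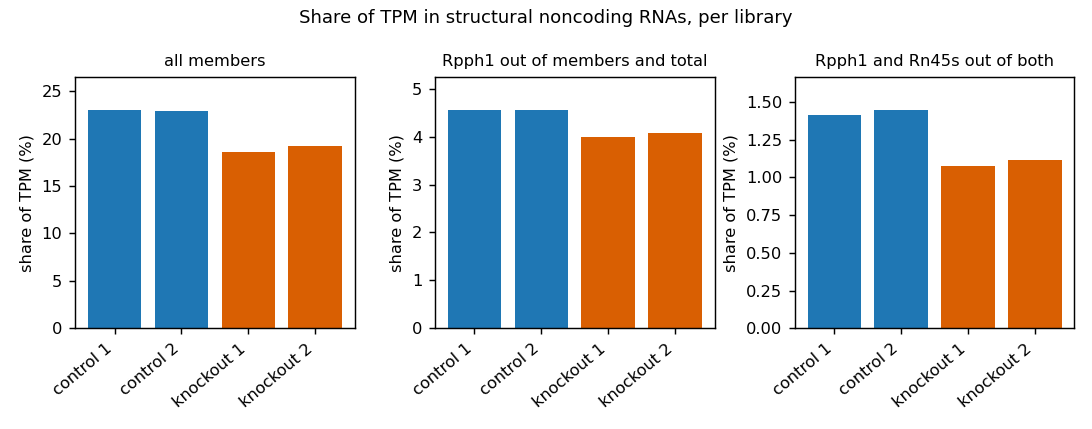
Share of TPM held by the members in each RNA library, as bars in percent, for all members (left), with Rpph1 out of the members and the total (middle) and with Rpph1 and Rn45s out of both (right). The vertical axes differ in scale. Both knockout bars are lower than both control bars in each panel, at 18.6% and 19.2% against 23.0% and 22.9% on the left.

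Because TPM has a fixed total, the lower Rpph1 level leaves more of each knockout library to all other genes. Taking Rpph1 out of the total multiplied the other values by 1.240 and 1.237 in the controls and by 1.180 and 1.187 in the knockouts, which lowered knockout against control by 0.066 on the log2 scale. The median log2 change of all 13228 genes with a mean of at least 1 TPM was 0.09 as deposited and 0.03 without Rpph1. The members' median moved from -0.09 to -0.16. Single libraries moved it more: it was -0.19 without control 2 and -0.0078 without knockout 1, with 0.09 and 0.08 for all genes. Scaling the libraries by median ratios put the medians at -0.003 for all genes and -0.18 for the members.

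Rpph1, the RNA of RNase P, was the most abundant of all 24538 listed genes. It lies on chromosome 14 (chr14:50807447-50807771, minus strand, 325 bases), outside any host gene. Its level was 193498 and 191800 TPM in the controls and 152245 and 157674 TPM in the knockouts, 19.3% and 19.2% of all TPM against 15.2% and 15.8%. Both knockout libraries were lower than both controls. In the limma fit across all genes, on log2(TPM + 1), the change was -0.31 (SE 0.029, adjusted p = 0.00134), a level 1.24-fold higher in the controls. Adjusted p is Benjamini-Hochberg over all genes tested, and a gene is called when it is under 0.05. With a single control library the call was lost, at adjusted p = 0.069 without control 1 and 0.0716 without control 2, though the change stayed at -0.31 and -0.32. It was also lost with no filter on low genes (0.0614). Quantile normalization gives the top gene of every library the same value, so its change there is 0 by construction.

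Rmrp, the RNA of RNase MRP (chr4:43492785-43493059, minus strand, 275 bases), was at 3720 and 3946 TPM in the controls and 3485 and 3483 TPM in the knockouts. The groups did not overlap, and the change was small, at -0.14 (SE 0.035, limma adjusted p = 0.0305). The call was lost without any 1 of the 4 libraries: adjusted p was 0.0516 and 0.17 without control 1 and 2, and 0.0995 and 0.0962 without knockout 1 and 2. The ratio of Rpph1 to Rmrp within a library was 52.0 and 48.6 in the controls and 43.7 and 45.3 in the knockouts, so Rpph1 was lower in the knockouts also when counted against the RNA of the related enzyme.

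Rn45s, which is cut into the large and small ribosomal RNAs (chr17:39842997-39848829, 5833 bases), was the second most abundant gene, at 25734 and 25503 TPM in the controls and 25052 and 25283 TPM in the knockouts. The change was -0.03 (limma adjusted p = 0.435) and the 95% interval ran from -0.09 to 0.03. Against the total without Rpph1 it was -0.09 (adjusted p = 0.0356), and with median-ratio scaling -0.13 (adjusted p = 0.0192), so whether this entry is called depends on the scale. Rpph1 per Rn45s was 7.52 in both controls and 6.08 and 6.24 in the knockouts. Ribosomal RNA copies in the genome are many and near-identical, so the assignment of reads to this entry is uncertain. The sources used here do not say how RNA was selected before sequencing.

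**Figure D2:**
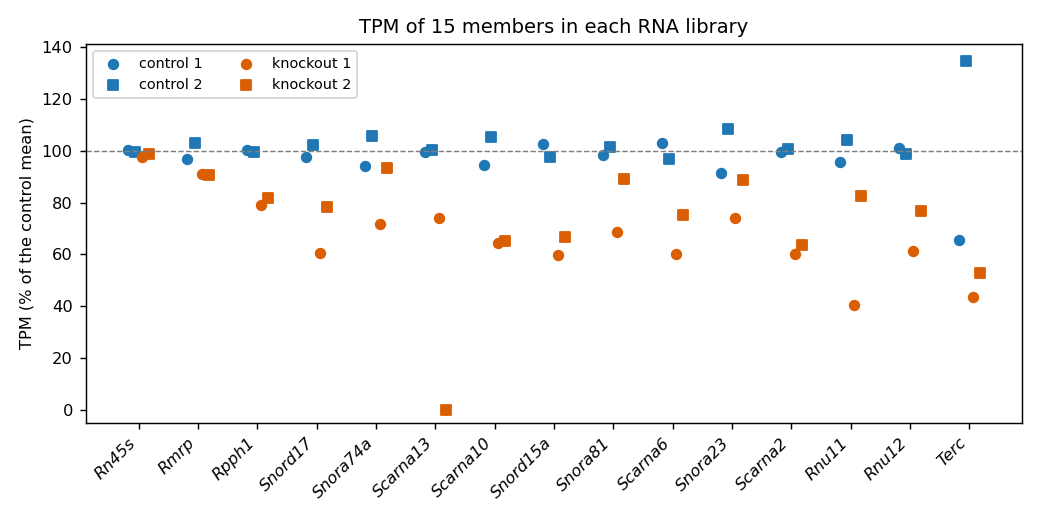
TPM of 15 members in each RNA library, as percent of the mean of the 2 control libraries (dashed line at 100). Blue marks controls and orange knockouts, with circles for replicate 1 and squares for replicate 2. Rn45s stays near the line, Rpph1 lies near 80% in both knockouts, and Scarna13 is at 0 in knockout 2.

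Of the 120 members, 108 had a mean of at least 1 TPM and were tested. The test called 17 lower and 8 higher in the knockouts, which is 23.1% of those tested, with 15.7% lower and 7.41% higher. Over all 13228 genes tested, 39.8% were called, 14.7% lower and 25.2% higher. In this fit the lower share of the members was thus near the background, and the higher share below it. Of the 108 tested members, 34 had both knockout values under both control values, and 22 had both above. Over all genes tested such complete separation was found for 29% in the lower and 44.4% in the higher direction, 73.4% in all. The split of all calls between lower and higher depended on the scale: 36.8% of calls were lower as deposited, 45.7% without Rpph1 in the total and 50.6% with median-ratio scaling. Leaving out 1 library changed the number of members called lower, which fell without either control and rose without knockout 2. Over all genes tested the number called lower fell in each of these fits. Without control 1, control 2 and knockout 2 the members' median log2 change was -0.09, -0.19 and -0.13. For all genes it was 0.10, 0.09 and 0.10. Precision was low for short RNAs: the median half-width of the 95% interval was 0.65 in log2 for members and 0.30 for all genes, and the members' median coverage was 13.3.

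**Figure D3:**
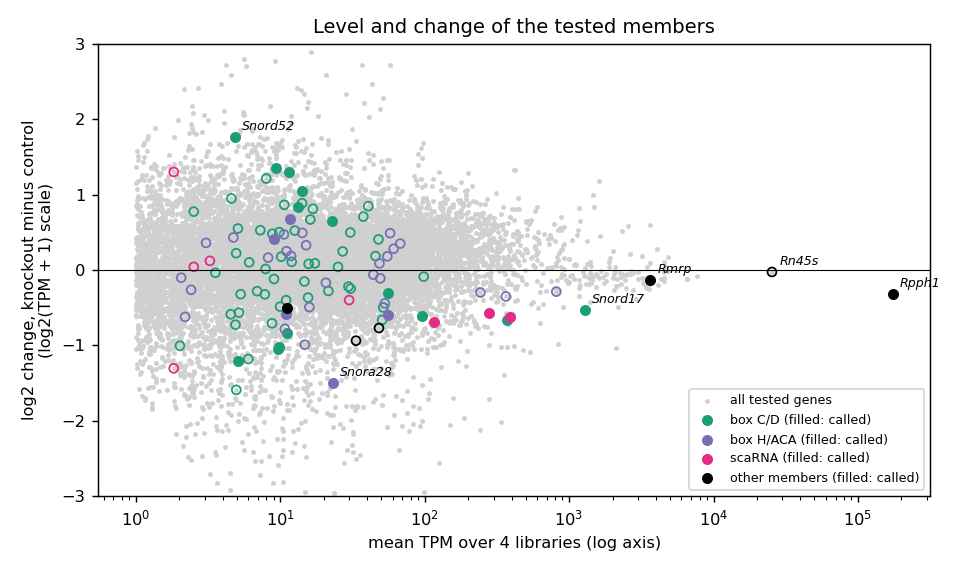
Mean TPM over the 4 libraries (horizontal, log axis) against the log2 change, knockout minus control, for the tested members by class over all tested genes in grey. Filled symbols are called. Scarna13, at a change of -5.09, and grey points beyond 3 in either direction lie outside the frame. Every snoRNA and scaRNA with a mean of at least 100 TPM lies under 0, and below that level members lie on both sides.

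The guide RNAs are described by level, and the difference between the level groups was not tested. Of snoRNAs and scaRNAs, 9 had a mean of at least 100 TPM over the 4 libraries. All 9 were lower in both knockouts than in either control, a separation found for 29% of all genes tested. The test called 5 of them lower, with a median log2 change of -0.57. Of these 5 calls, Scarna6 (adjusted p 0.0829 and 0.0617) and Snord17 (0.0901 and 0.114) were lost without control 1 or control 2. Of the 54 with a mean from 10 to 100 TPM, 6 were called lower and 5 higher, with a median of 0.10. Of the 39 from 1 to 10 TPM, 3 were called in each direction, with a median of -0.04. The shares called lower were 55.6%, 11.1% and 7.69% from the highest level group to the lowest, against 14.7% of all genes tested. The shares called higher were 0%, 9.26% and 7.69%, against 25.2%. The 9 abundant RNAs summed to 5239 and 5484 TPM in the controls and 3547 and 3587 TPM in the knockouts. The knockout 2 sum holds Scarna13 at 0, which can be a failed estimate, beside 639 TPM in knockout 1. The closeness of the 2 knockout sums, and the place of Scarna13 in knockout 2 under the controls, rest on that value. In 8 of the 9 the level was lower in knockout 1 than in knockout 2, the exception being Scarna13. The stroma marker sum was also the higher in knockout 1, and its part here was not tested. These 9 RNAs had a median length of 184 bases, against 79.5 and 71 bases in the groups below. Split by length instead, 4 of 14 tested guide RNAs of at least 130 bases were called lower and none higher, and of 88 shorter ones 10 were called lower and 8 higher. The longer group holds Snord53, listed at 770 bases against 68 in RefSeq, which was not called. Length and mean TPM were only weakly related over 113 guide RNAs (Spearman's rho 0.23).

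Among the scaRNAs, which guide modification of spliceosomal RNAs, 3 of 9 were called lower and none higher. Of all genes tested, 14.7% were called lower and 25.2% higher. Scarna10 (chr6:125186361-125186431, within the span of Ncapd2) was at 450 and 501 TPM in the controls and 306 and 310 TPM in the knockouts, a change of -0.62 (SE 0.057, limma adjusted p = 0.00128). Scarna2 (chr3:108554342-108554402), a scaRNA entry outside any listed host, was at 143 and 145 against 86.7 and 91.6 TPM, a change of -0.69 (SE 0.051, adjusted p = 0.000748). Both groups were tight and apart, and both calls held without any 1 library. Scarna6 (chr1:87784571-87784818, in Atg16l1) was at 344 and 324 against 201 and 252 TPM. Its change of -0.57 (limma adjusted p = 0.0114) was not called without control 1 (0.0829) or control 2 (0.0617).

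Scarna13 (chr12:105031075-105031349, in Snhg10) was at 858 and 867 TPM in the controls and 639 TPM in knockout 1, and was listed at 0 in knockout 2. Coverage was 998, 892 and 798 in the first 3 libraries and 0 in the last. An exact 0 beside such coverage can be a failed estimate, since genes with far lower levels had values in knockout 2. With it the change was -5.09 (limma adjusted p = 0.206), and without knockout 2 it was -0.43 (adjusted p = 0.00598). Its host Snhg10 was at 2.08 and 4.49 TPM in the controls and 2.17 and 2.41 TPM in the knockouts. The other 8 scaRNAs summed to 974 and 1021 TPM in the controls and 629 and 688 TPM in the knockouts, a drop of the mean by 34.0%, so the lower scaRNA sum did not rest on Scarna13. The 5 scaRNAs with means under 100 TPM (Scarna9, Scarna3b, Scarna8, Scarna3a and Scarna17) were not called.

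Of the box C/D snoRNAs, guides of ribose methylation, 62 of 69 were tested, 8 were called lower and 6 higher, and the median change was 0.03. The shares were 12.9% lower and 9.68% higher, against 14.7% and 25.2% of all genes tested, whose median was 0.09. Snord17 (chr2:144265982-144266202, in Snx5) was the most abundant, at 1484 and 1554 TPM in the controls and 920 and 1192 TPM in the knockouts. Its change was -0.54 (SE 0.12, limma adjusted p = 0.0188), lost without control 1 (0.0901) or control 2 (0.114). Snord15a (chr7:99482785-99482932, in Rps3) was at 467 and 444 against 273 and 304 TPM, and its change of -0.66 (adjusted p = 0.0013) held without any 1 library. So did that of Snord2 (chr16:23108953-23109020, in Eif4a2), at 118 and 115 against 69.8 and 83.4 TPM, a change of -0.60 (adjusted p = 0.00538). Snord22, of a similar level, did not separate, at 111 and 92.8 TPM in the controls and 92.6 and 98.1 TPM in the knockouts. Of these 4, the knockouts were thus lower in all but Snord22, whose groups overlapped.

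At lower levels, box C/D members were called in both directions. Snord52 (chr17:34950950-34951008, in 1110038B12Rik) was at 1.54 and 1.80 TPM in the controls and 7.34 and 8.76 TPM in the knockouts, the largest higher change among the called members at 1.76 (SE 0.19, limma adjusted p = 0.00204). Snord12 (chr2:167065293-167065358, in Zfas1) was at 6.41 and 5.95 against 14.9 and 18.7 TPM, a change of 1.30 (adjusted p = 0.00249), and Snord33 (in Rpl13a) at 16.6 and 18.3 against 29.9 and 26.3 TPM, a change of 0.65 (adjusted p = 0.00705). These 3 calls held without any 1 library. Coverage of Snord52 averaged 5.95 and that of Snord12 13.9, so these are thinly covered RNAs. Snord100 (1.05, adjusted p = 0.0111) was not called without control 1 (0.0705). Snord4a (1.36, adjusted p = 0.0266) was not called without control 2 (0.0578), knockout 1 (0.126) or knockout 2 (0.072), and Snord93 (0.84, adjusted p = 0.0384) not without control 2 (0.0897), knockout 1 (0.101) or knockout 2 (0.153). The Snord93 call was also lost on each rescaling tried except FPKM, for example at 0.0516 without Rpph1 in the total and 0.0574 with median-ratio scaling.

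The other called box C/D members were lower. Snord43 (in Rpl3) was at 14.9 and 12.0 TPM in the controls and 6.67 and 5.29 TPM in the knockouts, a change of -1.05 (limma adjusted p = 0.00772), lost without control 1 (0.0585). Snord66 (in Eif4g1) was at 14.2 and 15.1 against 8.71 and 6.89 TPM, a change of -0.84 (adjusted p = 0.00926), lost without control 1 (0.0564) or control 2 (0.0691). Snord69 (in Gnl3) was at 61.4 and 62.0 against 51.8 and 48.0 TPM, a change of -0.30 (adjusted p = 0.0174), lost without control 1 (0.0751), control 2 (0.0826) or knockout 2 (0.068). The knockouts lay under the controls in all 3. Snord61 (-1.21, adjusted p = 0.041) was lost without control 1 (0.123), control 2 (0.187) or knockout 2 (0.0813). Snord85 (-1.03, adjusted p = 0.0291) was lost without control 2 (0.0777), knockout 1 (0.111) or knockout 2 (0.0971).

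Of the box H/ACA snoRNAs, guides of pseudouridine, 31 of 35 were tested, with 3 called lower and 2 higher and a median of -0.06. The shares were 9.68% lower and 6.45% higher, against 14.7% and 25.2% of all genes tested. The most abundant were lower without passing the test. Snora74a was at 843 and 945 TPM in the controls and 640 and 836 TPM in the knockouts (-0.29, limma adjusted p = 0.136). Snora81 was at 402 and 414 against 281 and 364 TPM (-0.35, adjusted p = 0.0649), and Snora23 at 246 and 291 against 199 and 238 TPM (-0.30, adjusted p = 0.0891). In each, both knockouts lay under both controls, with knockout 2 close to them. Snora28 (chr12:111540946-111541066, in Eif5) showed the largest lower change of any called member. It was at 34.1 and 35.6 TPM in the controls and 13.0 and 10.4 TPM in the knockouts, a change of -1.50 (SE 0.13, adjusted p = 0.00102) that held without any 1 library.

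Snora75 (in Ncl) was at 64.7 and 70.2 TPM in the controls and 39.5 and 49.2 TPM in the knockouts, a change of -0.60 (limma adjusted p = 0.0119), lost without control 1 (0.0574) or control 2 (0.0821). Snora52 (in Rplp2) changed by -0.58 (adjusted p = 0.0242), lost without control 1 (0.0854), control 2 (0.127) or knockout 1 (0.0946). The 2 called higher were Snora61 and Snora70. Snora61 (in Snhg12) changed by 0.67 (adjusted p = 0.022), lost without control 1 (0.0883), knockout 1 (0.106) or knockout 2 (0.0637). Snora70 (in Rpl10) changed by 0.41 (adjusted p = 0.0489), lost without each of the 4 libraries (0.15, 0.142, 0.173 and 0.114) and on every rescaling tried. Of the 25 called members, 8 kept their call under every alternative in which they were tested: Scarna10, Scarna2, Snord15a, Snord2 and Snora28, which were lower, and Snord52, Snord12 and Snord33, which were higher. No called member changed sign.

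Members between 30 and 100 TPM on average that were not called included some with one library apart from the other three. Snord49a was at 67.7 and 52.5 TPM in the controls and 23.1 and 60.04 TPM in the knockouts, so only knockout 1 was low. Snora31 was at 65.5 and 56.2 against 36.0 and 54.6 TPM, again with knockout 1 the low library. Snora65 went the other way, at 45.8 and 48.0 against 50.7 and 86.5 TPM, with knockout 2 the high library. Snord47, 1 of the snoRNAs of Gas5, was at 43.3 and 17.8 against 54.6 and 47.5 TPM, with control 2 low. Snora68 was at 82.7 and 39.95 against 85.0 and 63.9 TPM, and its groups overlapped. For none of these 5 did limma give an adjusted p under 0.05 (0.266, 0.133, 0.159, 0.136 and 0.449). Snora7a, in Rpl32, overlapped between the groups, at 50.8 and 51.6 against 43.1 and 51.9 TPM.

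The 12 members with a mean under 1 TPM were not tested. None of them exceeded 3.18 TPM in any library, and 2, Snora36b and Snord64, were listed at 0 in both controls and above 0 in both knockouts, at 2.60 and 1.16 TPM and at 1.22 and 2.41 TPM. Values this low rest on few reads, and with no counts in the tables no limit on an absent RNA can be given. Snord116 and 2 entries of its cluster, a box C/D family known for neuronal expression, did not meet the rule. Over all 120 members, 106 were above 0 in all 4 libraries, 8 in 3 and 6 in 2.

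The minor spliceosome removes a rare class of introns, and Rnu11 and Rnu12 are the U11 and U12 RNAs that recognise their ends. Rnu12 (chr15:83149645-83149794) was at 13.4 and 13.1 TPM in the controls and 8.12 and 10.2 TPM in the knockouts, a change of -0.50 (limma adjusted p = 0.0424), lost without control 1 (0.162), control 2 (0.146) or knockout 1 (0.146). Rnu11 (chr4:132270079-132270186) was at 57.2 and 62.4 against 24.2 and 49.4 TPM, which was not called (-0.77, adjusted p = 0.103). Without knockout 2 its change was -1.27 (adjusted p = 0.0055), so knockout 2 decides that call. Both RNAs were lower in both knockouts.

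Terc, the template RNA of telomerase (chr3:96414437-96414833), was at 29.6 and 60.8 TPM in the controls and 19.7 and 23.9 TPM in the knockouts. The groups did not overlap, but the controls differed from each other by more than the lower control differed from the knockouts, and the change was not called (-0.94, limma adjusted p = 0.0707). Rnu6, named for the U6 RNA, was under 1 TPM on average and was not tested. Its 27-base entry on chromosome 19 is not the RefSeq locus of that name, which has 107 bases on chromosome 17. Likewise the 44-base Snord118 entry on chromosome 19 is not RefSeq's 137-base locus on chromosome 11. For neither RNA can a level be read from these entries. In all, 111 of 120 members had the coordinates of RefSeq GRCm38.p6, and Rnu73b had those that RefSeq gives as Snord73b.

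Of the 120 members, 107 lay within the span of 79 host genes on the same strand and 13 stood alone. The sources used here do not give the strand setting of the counting, and where a member overlaps a host's unspliced RNA their reads cannot be told apart. Of 78 hosts tested, 21 were called lower and 19 higher, which is 51.3% called in all. Over all genes tested, 39.8% were called, 14.7% lower and 25.2% higher. The 96 pairs of a tested member and host showed no common direction: Pearson's r of the 2 log2 changes was -0.045 and Spearman's rho -0.068, over 70 different hosts, with several members sharing a host. In 49 pairs the member's change lay below the host's and in 47 above it. In 2 pairs, Snord15a with Rps3 among them, both were called lower, in none were both called higher, and in 7 the calls were opposite.

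The opposite pairs fell in both directions. Snora75 was lower while its host Ncl (nucleolin) was higher, at 694 and 695 TPM in the controls and 1012 and 1034 TPM in the knockouts (0.56, limma adjusted p = 0.000379). Snord69 was lower while Gnl3 (nucleostemin) was higher, at 107 and 118 against 182 and 180 TPM (0.68). Snord66 was lower while Eif4g1, a translation initiation factor, was higher (0.54). Conversely, Snord12 was higher while its noncoding host Zfas1 was lower, at 82.7 and 77.7 against 45.3 and 47.7 TPM (-0.77, adjusted p = 0.00101). Snord33, Snord4a and Snora70 were higher while the ribosomal protein genes Rpl13a (-0.20), Rpl23a (-0.15) and Rpl10 (-0.21) were lower by less. The Rpl13a call was lost without control 2 (0.0612), the Rpl10 call without control 1 (0.051) or control 2 (0.0501), and the Rpl23a call without control 1 (0.0823), control 2 (0.16) or knockout 2 (0.0808).

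The 9 abundant guide RNAs had 8 hosts, Scarna2 having none. Of these, Rps3 was called lower, Snhg4 and Ipo7 higher and the other 5 not. Snx5, host of Snord17, was at 204 and 214 TPM in the controls and 221 in both knockouts. Ncapd2, host of Scarna10, was at 166 and 167 against 170 and 176 TPM. Eif4a2, host of Snord2 and Snora81, was at 200 and 189 against 188 and 192 TPM. None of these 3 was called, and the signs of Snx5 and Ncapd2 flipped with median-ratio scaling. Rps3, host of Snord15a, was called lower with its snoRNA, at 1268 and 1273 against 1100 and 1107 TPM (-0.20, limma adjusted p = 0.00381), a smaller change than the snoRNA's. Snhg4, host of Snora74a, was at 21.3 and 20.8 against 26.9 and 29.5 TPM (0.40, adjusted p = 0.0182), lost without control 1 (0.0719), control 2 (0.0849) or knockout 2 (0.083). Ipo7, host of Snora23, was at 196 and 190 against 218 and 217 TPM (0.17, adjusted p = 0.0229), lost without any 1 of the 4 libraries (0.059, 0.0995, 0.0836 and 0.0708) and at -0.0065 with quantile normalization. Both were thus higher where their snoRNA was lower without being called. Atg16l1, host of Scarna6, changed by -0.22 (adjusted p = 0.118) and Snhg10, host of Scarna13, by -0.32 (adjusted p = 0.465). Among the less abundant, Eif5, host of Snora28, was at 164 and 168 against 163 and 167 TPM.

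**Figure D4:**
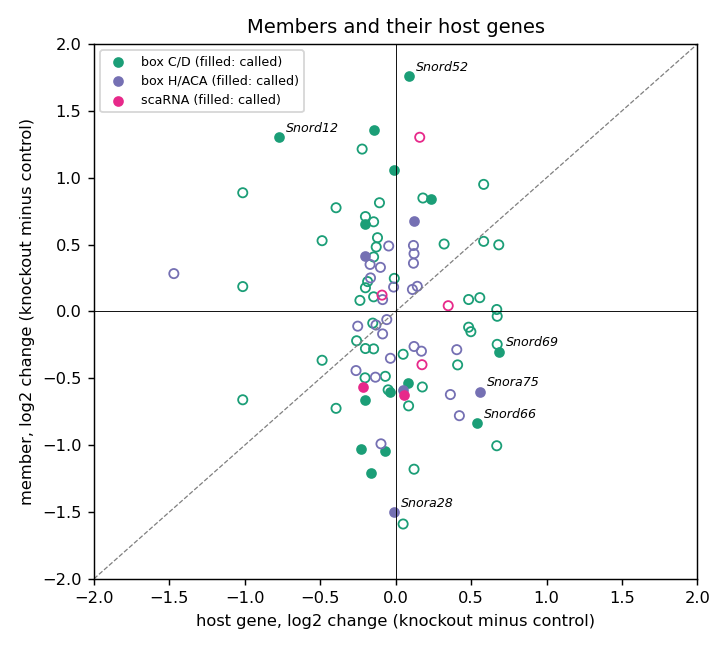
Log2 change of each tested member (vertical) against that of its host gene (horizontal), knockout minus control, by class. Filled symbols are called members, the dashed line marks equal change, and Scarna13 lies outside the frame. The points spread over all 4 quadrants, with Snora75, Snord69 and Snord66 at the lower right and Snord12 at the upper left.

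Some hosts held several members. Of the 4 members in Rpl13a, Snord33 was called higher, Snord35a was at 36.2 and 21.6 TPM in the controls and 48.4 and 44.4 TPM in the knockouts (0.71, limma adjusted p = 0.0598), and the groups of Snord34 and Snord32a overlapped. In Rps3, Snord15a was called lower and Snord15b was at 58.7 and 61.0 against 32.2 and 55.0 TPM (-0.50, adjusted p = 0.151). Whether members of 1 host differ from each other was not tested. Of 63 hosts with a RefSeq promoter entry, 7 (11.1%) began with a C followed by at least 4 pyrimidines, as the mRNAs of ribosomal proteins often do, against 315 of 9850 tested genes (3.20%).

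Genes of the proteins that act with these RNAs were called higher more often than lower. Of 129 tested genes on 9 lists of partner proteins, 66 were called higher and 6 lower, against 25.2% and 14.7% of all genes. On the box C/D list 11 of 14 tested genes were higher and none lower (median 0.60), on the box H/ACA list 5 of 9 and none (median 0.49), and on the list of RNase P and RNase MRP proteins 7 of 10 and none (median 0.53). The corresponding median over all genes was 0.09. On the lists of spliceosomal Sm and snRNP proteins 23 of 26 were higher and none lower. Without control 2 the number called higher over the 129 fell from 66 to 43.

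Box C/D partners were higher in both knockouts than in either control in 13 of 14 genes. Such separation was found for 44.4% of all genes tested. Nolc1, a nucleolar chaperone of snoRNPs, was at 102 and 112 TPM in the controls and 192 and 186 TPM in the knockouts (0.82, limma adjusted p = 0.000732). Znhit6, an assembly factor, was at 17.7 and 16.3 against 30.3 and 31.0 TPM (0.81), and Rrp9, which binds the U3 snoRNA, at 35.7 and 36.9 against 64.6 and 59.4 TPM (0.76). Among box H/ACA proteins, the pseudouridine synthase gene Dkc1 was at 85.7 and 83.8 against 140 and 132 TPM (0.68), and Nhp2 at 130 and 133 against 234 and 211 TPM (0.75). All 5 calls held without any 1 library. Shq1, which chaperones dyskerin, was at 6.70 and 7.51 against 10.9 and 12.6 TPM (0.65, adjusted p = 0.0186), lost without control 1 (0.0927), control 2 (0.0627) or knockout 2 (0.0899).

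Of the genes for proteins of RNase P and RNase MRP, 7 of 10 were called higher, while both RNAs were called lower. Rpp38 was at 6.05 and 8.06 TPM in the controls and 15.9 and 17.1 TPM in the knockouts (1.13, limma adjusted p = 0.00456). Pop1, the largest subunit, was at 12.4 and 12.0 against 25.4 and 25.3 TPM (0.995, adjusted p = 0.00131), and Rpp30 at 13.7 and 13.0 against 23.4 and 25.4 TPM (0.83, adjusted p = 0.00273). The values of the knockouts lay far above those of the controls, and these 3 calls held without any 1 library. Of the 7 called on this list, 3 held so.

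Of the other lists, the Sm and snRNP list and the snRNA transcription list had calls in the higher direction only. The minor spliceosome and RNA polymerase III lists had calls in both directions. Of the Sm and snRNP genes, Lsm3 was at 137 and 145 against 264 and 250 TPM (0.86), Lsm2 changed by 0.85 and Snrpd3 by 0.72. Of 9 genes of minor spliceosome proteins, Snrnp25 (0.53) and Zcrb1 (0.24) were higher and Zrsr1 was lower, at 20.1 and 19.1 against 11.2 and 9.94 TPM (-0.83, limma adjusted p = 0.00403). Of 24 genes of snRNA transcription and processing, 8 were higher and none lower, with Gemin4 at 13.5 and 16.0 against 27.0 and 30.1 TPM (0.91). Of 23 genes of RNA polymerase III transcription, 9 were higher and 3 lower. Polr3g, a subunit of that polymerase, was at 11.7 and 10.1 against 20.0 and 18.8 TPM (0.78), and Maf1, its repressor, at 67.9 and 72.6 against 48.9 and 42.8 TPM (-0.61, adjusted p = 0.00429).

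Of the 7SK complex, which holds the elongation factor P-TEFb inactive, Larp7 was higher, at 81.7 and 76.9 against 102 and 113 TPM (0.44, limma adjusted p = 0.00643), and Hexim1 lower, at 56.1 and 56.8 against 42.8 and 40.7 TPM (-0.43). Hexim2 was also lower (-0.61, adjusted p = 0.02), lost without control 1 (0.0854), control 2 (0.103) or knockout 1 (0.083). Of 7 telomerase and telomere genes limma called none, with 1 at an unadjusted p under 0.05; Tert was at 4.67 and 3.11 against 2.60 and 2.06 TPM. Among 16 tested genes on a list of noncoding hosts, which does not hold Zfas1, 4 were higher and 2 lower. That is 25% and 12.5%, against 25.2% and 14.7% of all genes tested. The calls of Snhg15 (0.68) and Snhg5 (0.35), both higher, held without any 1 library. Tug1 was lower (-0.87, adjusted p = 0.00929), lost without control 1 (0.0555).

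**Figure D5:**
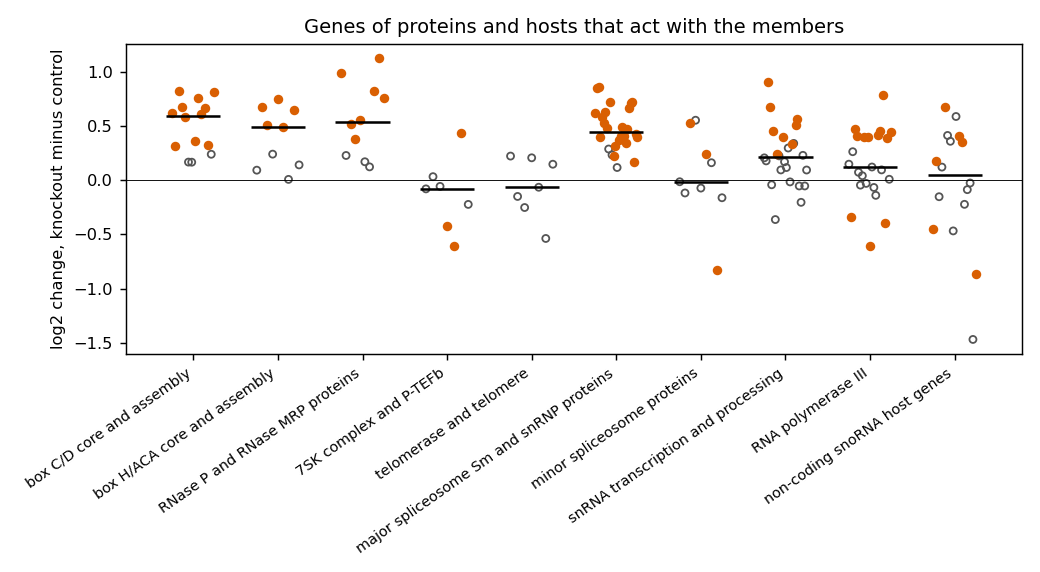
Log2 change, knockout minus control, of each tested gene on 10 lists of proteins and noncoding hosts that act with the members. Orange points are called, open points are not, and bars are list medians. The box C/D, box H/ACA, RNase P and RNase MRP, and Sm lists have no point under 0, while the 7SK and telomerase lists lie around 0.

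ATAC-seq gave a separate readout at the starts of the members. The authors called peaks in each library, with 103021 and 105238 peaks in the controls and 109388 and 111014 in the knockouts. A start was counted as accessible when a peak overlapped the 500 bases on either side by at least 1 base. Of 13 stand-alone members, 9 had a peak in all 4 lists: Rpph1, Rmrp, Rn45s, Terc, Rnu11, Rnu12, Scarna2, Scarna17 and Snord104. The other 4 (Snord89, Snord118, Snord64 and Rnu6) had none in any. Of the 107 members within hosts, 20 had a peak in all 4 lists and 83 in none. Several of these 20 peaks were the peak at the host's own start, as for Snord15a in Rps3 and Snord43 in Rpl3. Such a peak cannot be assigned to the start of the member. The host genes' own starts had one in all 4 lists in 74 of 79 cases (93.7%), against 85.2% of all 13228 genes.

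At Rpph1 the authors' fold enrichment of the peak was 17.4 and 18.3 in the control lists and 20.0 and 18.5 in the knockout lists. At Rmrp it was 21.4 and 21.0 against 21.3 and 22.0, and at Scarna2 17.7 and 18.6 against 19.1 and 19.0. These are each peak's value within its own list and are not compared between lists. For each of the stand-alone RNAs called lower in the knockouts (Rpph1, Rmrp, Scarna2 and Rnu12) a peak was thus present at the start in both groups. Rnu11 and Terc, lower in both knockouts without being called, also had a peak in both groups. The Rpph1 peak also spanned the start of Parp2, 145 bases away, and Ccdc107 starts 306 bases from Rmrp. The Rpph1 peak can therefore not be assigned to that RNA's own promoter alone. The Rmrp peak ended at base 43493150 in control 1, short of the Ccdc107 start at base 43493365. Whether the Rmrp peak belongs to the promoter of Rmrp alone was not tested. Snord99, in Snhg12, was the 1 member with a peak in both control lists and in neither knockout list, with fold enrichments of 4.96 and 4.51. Its RNA was at 7.12 and 8.68 TPM in the controls and 0.801 and 7.50 TPM in the knockouts, which was not called (limma adjusted p = 0.233). At Snora3, Snora64 and Snord110 a peak was present in 1 or 2 lists without following the groups. The peak lists hold no read counts, so no test of accessibility was run.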

How the data were processed

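Per the labels and the submitters' processing notes, the RNA reads were handled with HISAT2 and StringTie and the ATAC-seq reads with Bowtie2 and MACS2, on mm10, with no versions given. The RNA tables as deposited give each gene's position, coverage, FPKM and TPM. The peak lists as deposited give a score, a fold enrichment (a ratio), and -log10 p and -log10 q per peak, as MACS2 writes them. The sources used here do not give the authors' read filtering, strand setting or RNA selection.

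Several entries of 1 gene ID were summed. Log2(TPM + 1) of genes with a mean of at least 1 TPM was fitted with limma 3.58.1 (R 4.3.3, lmFit and eBayes with an intensity trend, 2 control and 2 knockout libraries, no covariate), with Benjamini-Hochberg adjustment over all 13228 genes and a threshold of 0.05. A fold change on this scale understates the change of low genes. The script was tested on simulated data. Files hold no read counts, so no count test was run and the depth in reads is unknown. Hosts are the shortest listed gene on the same strand that spans the member. Tables were handled in Python 3.11.15 with pandas 2.3.3.

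Alternatives were a pseudocount of 0.1, a mean of at least 5 TPM, no such filter, rescaling without Rpph1 or without any member, median-ratio and quantile scaling, FPKM, no trend, a replicate block, each library left out, other peak windows (250 and 1000 bases) and a -log10 q of at least 5. A share without Scarna13 was added after its values were seen. Named were the RNAs listed singly in the rule, Rnu and Scarna members, the 10 most abundant and up to 10 called members each of Snord and Snora, their hosts, and up to 3 called genes with the largest change per partner list; a few others were named after their values were seen. The members, lists and tests were chosen with earlier results of these data known. The values of 1 host gene are not reported here.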

Additional observations from a re-analysis of the deposited data

How the results depend on the processing

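The number of members called lower was 17 as reported, 10 without the intensity trend and 26 with the replicate block, and it ran from 7 to 28 when 1 library was left out. The number called higher ran from 6 to 11 without 1 library, against 8. Of partner proteins, 10 were called lower after rescaling without any member and 10 with median-ratio scaling, against 6, and those called higher ran from 43 to 52 without 1 library, against 66. The difference in share was -4.03 points as deposited, -0.517 without Rpph1, -0.334 without Rpph1 and without Rn45s, and between -4.33 and -3.74 without 1 library. Over all 13228 genes tested, the number called lower was 1940 as reported, 1623 without the intensity trend and 1798 with the replicate block. Without the trend the number called lower thus fell for members and for all genes. With the replicate block it rose for members, from 17 to 26, and fell for all genes. The cause of these shifts was not tested. Starts of members with a peak in all 4 lists stayed within 1.5 times the 29 reported under each window and threshold tried. Equal replicate numbers did not go with shared deviations across genes (correlation 0.0043). With 2 libraries per group this cannot show whether equal numbers share a culture, an animal or a day. With that block the calls of Rnu12 (adjusted p = 0.0558) and Snora70 (0.08) were lost. Rnu12 was also lost without the trend (0.0573) and with no filter on low genes (0.0765).

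Of the named genes, 20 changed sign in at least 1 alternative, and of these only Ipo7, the host of Snora23, had been called. With a pseudocount of 0.1, the log2 change was -0.0100 for Scarna8. Rescaled without Rpph1, the log2 change was -0.00848 for Scarna8, -0.00962 for Ncapd2 and -0.0171 for Rplp2. Rescaled without any member, the log2 change was -0.0157 for Scarna8, -0.0174 for Ncapd2 and -0.0249 for Rplp2. With median-ratio scaling, the log2 change was -0.0243 for Scarna8, -0.0465 for Ncapd2, -0.0193 for Snx5, -0.0157 for 1110038B12Rik and -0.0542 for Rplp2. With quantile normalization, the log2 change was -0.12 for Ncapd2, -0.0752 for Snx5, -0.0104 for 1110038B12Rik, 0.0789 for Rps12, 0.0217 for Rpl3 and -0.00651 for Ipo7. With 1 library left out it ran from -0.16 to 0.40 for Scarna3b, -0.67 to 0.76 for Scarna8, -0.21 to 0.0393 for Snord22, -1.33 to 0.0102 for Snord49a, -0.14 to 0.51 for Snord49b, -0.16 to 0.87 for Snora68, -0.10 to 0.46 for Snora33, -0.24 to 0.0199 for Snora7a, -0.74 to 0.0973 for Snhg10, -0.0752 to 0.00499 for Eif4a2, -0.0564 to 0.23 for 1110038B12Rik, -0.0403 to 0.0124 for Rps12, -0.0304 to 0.0065 for Eif5, -0.0196 to 0.12 for Rplp2, -0.20 to 0.0307 for Snhg7 and -0.0947 to 0.0439 for Snhg8.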
